A study of Mus musculus and Macaca mulatta with 39 samples.

Results

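H3K27ac, the acetylation of histone H3 that lies on active promoters and enhancers, was compared between embryonic frontal and embryonic occipital cortex of the rhesus macaque at 12 weeks after conception (12 pcw). Chromatin immunoprecipitation and sequencing (ChIP-seq) had given 1 list of called regions per sample, with 2 biological replicates of frontal and 2 of occipital cortex. Touching or overlapping regions of these 4 lists were merged into loci on chromosomes 1, 2, 3, 4, 9, 10, 11, 12, 16 and 18, which gave 60970 loci from lists of 30424 to 41634 regions, out of 1556996 regions in all lists of the series. A locus was frontal-only when both frontal lists and no occipital list held a region (1943 loci), occipital-only in the reverse case (2162 loci), and shared when all 4 lists held one (15817 loci). H3K4me2 had been profiled alongside in every replicate, and embryonic cortex of 8 pcw, with no area named, had been profiled for both marks in 1 replicate. The series covers 39 samples, of which the 10 rhesus lists were used. The labels give no sex, strain or animal for the macaques, and both areas were dissected from thawed tissue, crosslinked with formaldehyde and sonicated, so that each list comes from a mixture of cell types. A mark carried by fewer cells and a weaker mark per cell cannot be told apart. No rhesus annotation was used, so that loci are given by position without gene names, and whether marker genes match the labelled areas was not analysed here.

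The cerebral cortex is divided into areas along its frontal to occipital axis. Signalling centres at the edge of the cortical sheet and transcription factors expressed in opposing gradients set up this axis before thalamic fibres arrive. The frontal pole gives rise to motor and prefrontal areas and the occipital pole to visual cortex. H3K4me2 marks promoters and enhancers both before and during their activity, so that a locus with H3K4me2 and no H3K27ac is often described as primed or poised. Both marks together are typical of active regulatory elements.

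Most loci were called in a single list or in all of them, and few divided by area. Loci called in 1 list numbered 28479 (46.7%), in 2 lists 9915, in 3 lists 6759 and in all 4 lists 15817 (25.9%). Frontal-only loci made up 3.19% and occipital-only loci 3.55% of all loci. The remaining 5810 loci in 2 lists had a region in 1 list of each area, and 3513 of them in replicate 1 of both areas, which exceeded either area-only class. Replicate 2 of both areas alone held 1032 loci, frontal replicate 2 with occipital replicate 1 held 946, and frontal replicate 1 with occipital replicate 2 held 319. These counts are those of list membership, on which the classes rest, and no test is given for them.

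**Figure D1:**
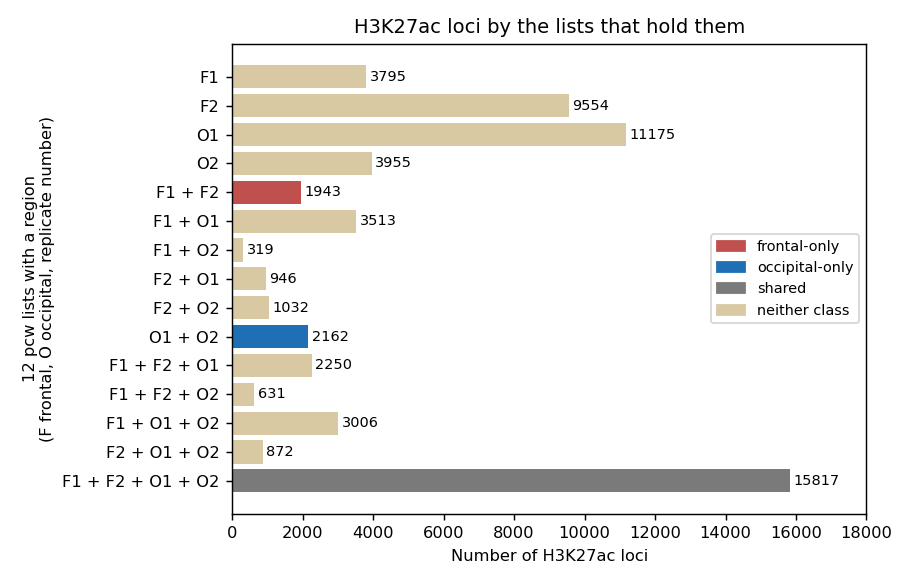
Number of H3K27ac loci (x axis) for each combination of the 12 pcw lists that held a region (y axis; F frontal, O occipital, with the replicate number). The bars of the frontal-only (1943) and occipital-only (2162) classes are shorter than the bar of loci held by replicate 1 of both areas (3513).

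The lists differed in length and in where they ended. On the 10 chromosomes frontal replicate 1 covered 71.0 Mb, frontal replicate 2 63.2 Mb, occipital replicate 1 97.4 Mb and occipital replicate 2 66.6 Mb. Frontal replicate 2 and occipital replicate 1 stopped 1.19 to 25.8 Mb before the last region of the other lists on 10 of the 21 chromosomes listed, and these chromosomes were left out. Neither of the other lists did so. On 9 of these 10 chromosomes both stopped within 0.05 Mb of each other, and on the tenth within 0.290 Mb. How the stops arose is not stated, and whether these lists were processed otherwise than the rest was not tested. These same lists held the most loci called nowhere else, 9554 in frontal replicate 2 and 11175 in occipital replicate 1, against 3795 in frontal replicate 1 and 3955 in occipital replicate 2. Each area therefore had 1 list of either kind, and both kinds were compared on their own. Between the lists that stop early, 14028 loci were called in frontal cortex alone and 20729 in occipital cortex alone. Between the lists that reach the chromosome ends these numbers were 13318 and 8844, so that the order of the areas turned.

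By median span, area-only loci were shorter than shared loci and longer than loci in 1 list. A span joins the regions of all lists that hold the locus, so that it can grow with their number. Frontal-only loci had a median span of 1125 bp (quartiles 925 and 1775 bp) and occipital-only loci one of 1425 bp (1025 and 2225 bp). It was 3175 bp (2175 and 5525 bp) for shared loci and 1225 bp for all loci. Loci in 1 list of each area had 1400 bp and loci in 1 list 725 bp. Spans of at least 5 kb occurred at 24 frontal-only loci (1.24%), 50 occipital-only loci (2.31%) and 4565 shared loci (28.9%). At frontal-only loci the median covered length was 775 bp in frontal replicate 1 and 950 bp in replicate 2. At occipital-only loci it was 1025 bp in occipital replicate 1 and 900 bp in replicate 2. Shared loci had a median covered length of 1875 bp (frontal replicate 2) to 2550 bp (occipital replicate 1) in a list. The lengths of a locus in the replicates of its area lay within a factor of 2 at 76.2% of frontal-only and 69.8% of occipital-only loci. The area-only loci made up 2.54% and 3.83% of the length of the frontal lists and 3.05% and 3.99% of that of the occipital lists, whereas shared loci made up 64.0 to 76.8% of each.

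The frontal-only loci with the longest regions in both frontal lists were spread over 8 chromosomes. On chromosome 11 from 87615526 to 87622975, regions covered 5625 bp in frontal replicate 1 and 3850 bp in replicate 2, with no region in either occipital list and 1625 bp at 8 pcw. On chromosome 9 from 51048101 to 51053000, the frontal lists covered 3475 and 3725 bp, and 8 pcw cortex had no region. The locus on chromosome 2 from 47210476 to 47214875 was covered over 3700 and 3450 bp, with 975 bp at 8 pcw. Of these loci it was the one that lay in a 1-Mb window rich in frontal-only loci, described below. On chromosome 4 from 37975101 to 37980475 the frontal lists covered 3450 and 4975 bp, and 8 pcw cortex already 2650 bp. On chromosome 18 a locus from 70505226 to 70510000 (3300 and 4250 bp) and another from 42067351 to 42074350 (3175 and 5450 bp) had no H3K27ac region at 8 pcw. Of the 10 longest frontal-only loci, 5 had a region in the 8 pcw H3K27ac list. H3K4me2 was called at 12 pcw at the locus on chromosome 9 alone, over 1150 bp in frontal replicate 2, and the other 9 had no H3K4me2 region in any 12 pcw list.

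The longest occipital-only loci differed from these in their H3K4me2. On chromosome 3 from 170842401 to 170847825 H3K27ac covered 5350 bp in occipital replicate 1 and 5325 bp in replicate 2, none in frontal cortex and none at 8 pcw. Its H3K4me2 was called over 1350 bp in frontal replicate 2 and 1125 bp in occipital replicate 1. The locus on chromosome 2 from 21209401 to 21215500, with 5250 and 6100 bp of occipital H3K27ac, carried H3K4me2 in all 4 lists, over 575 and 5275 bp in the frontal and 4875 and 800 bp in the occipital lists. Frontal cortex thus held H3K4me2 at this locus where no frontal H3K27ac was called. On chromosome 9 from 10590876 to 10596475 H3K27ac covered 5600 and 4525 bp in occipital cortex and 1925 bp at 8 pcw. The locus on chromosome 3 from 144654876 to 144661000 (4450 and 6125 bp) had H3K4me2 over 4175 bp in frontal replicate 2 and over 1900 and 2075 bp in the occipital lists. On chromosome 16 from 64008326 to 64014575 (4100 and 6200 bp) neither mark was called at 8 pcw. All 10 of the longest occipital-only loci had H3K4me2 in frontal replicate 2 and occipital replicate 1, and 3 had an H3K27ac region at 8 pcw.

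**Figure D2:**
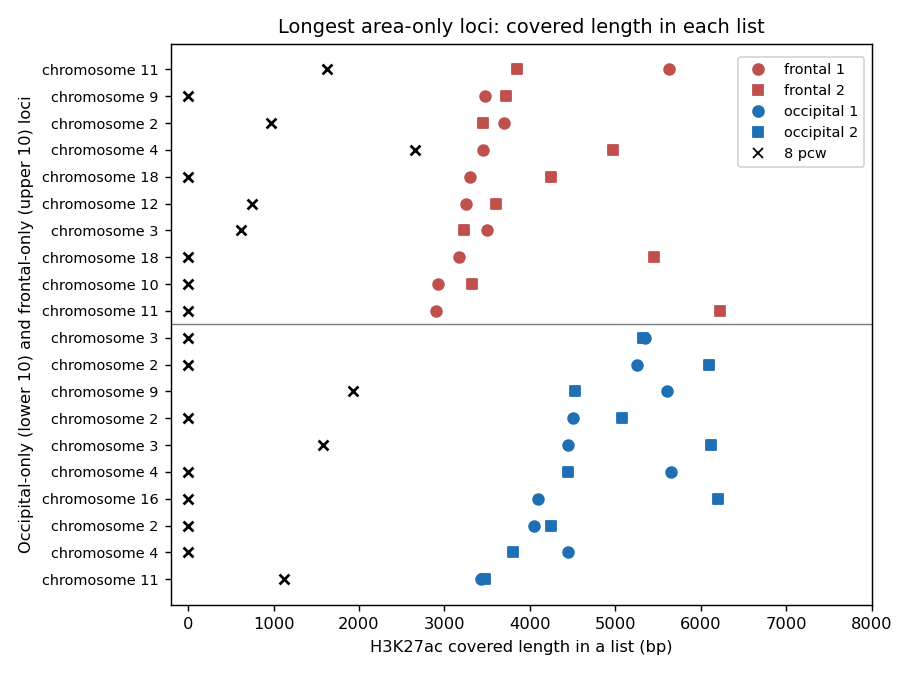
H3K27ac covered length in bp (x axis) at the 10 frontal-only (upper rows) and 10 occipital-only loci (lower rows) with the longest regions in both lists of their area, by chromosome. Circles and squares are the replicates of that area and crosses the 8 pcw list, which lies below both replicates at all 20 loci. The lists of the other area are at 0 by the choice of loci and are not drawn.

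At the edge of the classes, the loci just inside were covered over 500 bp, the shortest region in these lists, in both lists of their area. Chromosome 1 held such a frontal-only locus from 197175901 to 197176575, and chromosome 3 held one from 53609026 to 53609775, whereas such occipital-only loci spanned 56856251 to 56856900 and 201574651 to 201575225 of chromosome 1. Just outside were loci where a single region of 500 bp in 1 list of the other area broke the rule. One on chromosome 1 from 291726 to 294075 had 600 and 2350 bp in the frontal lists, and occipital replicate 1 held 500 bp there. Another on chromosome 1 from 9923901 to 9928200 had 4300 and 500 bp in the occipital lists, and frontal replicate 1 held 500 bp there. With a region counted from 1000 bp upward, the classes held 770 frontal-only and 1630 occipital-only loci.

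No single locus passed the test across all loci. Of 32491 loci called in at least 2 of the 4 lists, none had a limma adjusted p below 0.05 for log2 covered length (with 200 bp added) in frontal against occipital cortex, a share called of 0%. At an unadjusted p below 0.05 there were 5385 loci, 2339 longer in frontal and 3046 longer in occipital cortex. The area-only classes, chosen on the same values, held 1925 and 2137 of these. The split turned with scaled lengths, at 2658 frontal of 5233 loci. With 1 list left out, the area-only loci of its area were called in a single remaining list and fell out of the test. Splits under those settings follow in part from this filter and are not given. The smallest limma adjusted p, 0.101, was found in the frontal-only, occipital-only and shared classes alike. The smallest unadjusted limma p of all, 0.000141, was that of a shared locus. Area-only loci with an adjusted p of 0.101 ran from those of 500 bp to the longest. Among them were that on chromosome 11 from 87615526 (log2 difference 4.60) and that on chromosome 2 from 21209401 (-4.87). The count of called loci remained 0 with the replicate number or the kind of list as a block.

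Among shared loci no length passed the limma test between areas, and long domains are described by their values. The covered lengths did not overlap between areas at 1797 shared loci with longer frontal and 5265 with longer occipital regions. These were 11.4% and 33.3% of shared loci, beside 14.6% and 28.4% of all loci tested. The latter include the area-only loci, which do not overlap by the class rule, so that shared loci cannot be ranked against them. After division of every covered length by the length of its list the counts of shared loci were 3248 and 2092. The share longer in frontal cortex thus went from 25.4% to 60.8%, and the direction of the excess depended on list length. The median difference over all tested loci was -0.18 on the log2 scale as listed and 0.04 when scaled.

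The domain on chromosome 2 from 98535376 to 98559725 was longer in frontal cortex. It was covered over 19275 and 22750 bp in the frontal lists, 10850 and 4175 bp in the occipital lists and 7850 bp at 8 pcw (log2 difference 1.60, limma adjusted p = 0.327). Chromosome 1 between 5495076 and 5550525 held 46275 and 55375 bp in frontal and 37125 and 29100 bp in occipital cortex (adjusted p = 0.687 by limma). Of the 5 largest such differences, the frontal replicates differed least on chromosome 10 from 64293626 to 64324050, at 29100 and 28975 bp against 19725 and 16600 bp in occipital cortex (limma adjusted p = 0.406).

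Domains longer in occipital cortex included one on chromosome 18 from 48586026 to 48622500, covered over 17325 and 10725 bp in frontal and 36475 and 29325 bp in occipital cortex (log2 difference -1.25, limma adjusted p = 0.279). Its H3K4me2 covered 19300 and 36475 bp in the frontal and 34575 and 29375 bp in the occipital lists, so that H3K4me2 reached over the stretch in frontal replicate 2 while H3K27ac did not. Chromosome 12 held another pair of such domains. From 61904401 to 61947125 H3K27ac covered 31400 and 10550 bp in frontal and 41825 and 36275 bp in occipital cortex, with 1675 bp at 8 pcw. From 63019476 to 63066050 it covered 34875 and 18325 bp in frontal and 45250 and 43625 bp in occipital cortex, with 9025 bp at 8 pcw, and H3K4me2 covered 42175 to 46575 bp in every 12 pcw list. Values of the areas did not overlap at these domains, by their choice, and none passed the limma test (adjusted p = 0.632 and 0.629 for the last pair).

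The longest domain shared by all 4 lists, by its shortest list, lay on chromosome 10 from 71091251 to 71164425. A second one on that chromosome, from 70844976 to 70917275, was covered over 56550 and 50025 bp in frontal and 69950 and 67675 bp in occipital cortex. Of the 5 longest, chromosome 16 from 24254226 to 24317375 varied least, at 56575 and 58150 bp in frontal, 59900 and 57975 bp in occipital and 57800 bp in 8 pcw cortex. Its H3K4me2 differed more between lists, from 5000 bp in frontal replicate 1 to 34400 bp in frontal replicate 2. On chromosome 9 from 58831726 to 58900825 the areas overlapped, with 64075 and 54550 bp in frontal and 68725 and 54400 bp in occipital cortex.

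At 8 pcw most shared loci already had H3K27ac and most area-only loci did not. The 8 pcw list held a region at 85.7% of shared loci (95% Wilson interval 85.1 to 86.2%), 24.4% of frontal-only loci (22.6 to 26.4%) and 26.9% of occipital-only loci (25.1 to 28.8%). The intervals cover counting error over loci alone, and with 1 list at 8 pcw there is no replicate check and no test. Over all loci the share was 35.8%, and over loci in 1 list 9.91%. Loci held by 1 list of each area had 23.7%, close to both area-only classes. With span, the share rose at frontal-only loci from 17.3% up to 1000 bp to 25.6% between 1000 and 2000 bp and 35.8% above 2000 bp. At occipital-only loci it was 21.4%, 29.4% and 27.7%. The order of the area-only classes turned with 1000 bp needed, at 49.7% for frontal-only and 41.0% for occipital-only loci. This setting changes the classes too, since a locus with under 1000 bp in the other area then counts as area-only. Loci of more lists can thus enter, and short area-only loci drop out. With a list left out the classes themselves change. That of the area left with 1 list takes in loci of a single list, and the other takes in loci of 3 lists. Over loci in 3 lists the share was 44.6%. The order under these settings therefore does not single out a list. Without occipital replicate 1 the shares were 36.4% for frontal-only and 15.2% for occipital-only loci, and without occipital replicate 2 they were 30.1% and 14.0%. Without frontal replicate 1 they were 11.9% and 35.7%, and without frontal replicate 2 14.6% and 33.7%. In each case shared loci stayed far above both, at 78.7% or more.

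The area-only classes differed from each other in their H3K4me2 at 8 pcw. H3K4me2 without H3K27ac was called at 32.3% of occipital-only and 16.9% of frontal-only loci, and H3K27ac without H3K4me2 at 3.79% and 12.5%. Neither mark was called at 58.7% of frontal-only, 40.8% of occipital-only and 4.80% of shared loci. H3K4me2 with or without H3K27ac was present at 28.8%, 55.4% and 92.8% of the same classes, beside 49.4% of all loci, so that occipital-only loci lay near all loci and frontal-only loci below them.

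**Figure D3:**
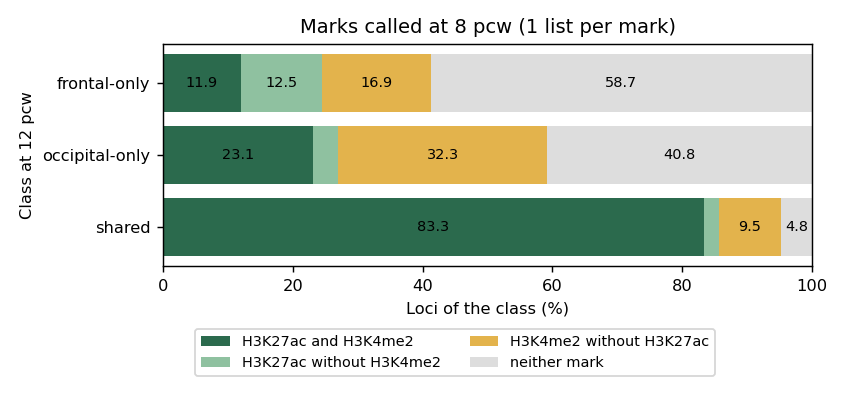
Percent of the loci of each 12 pcw class (x axis) by the marks called at the locus at 8 pcw, from 1 list per mark. Neither mark was called at 58.7% of frontal-only, 40.8% of occipital-only and 4.80% of shared loci.

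At 12 pcw, H3K4me2 was called less often at frontal-only than at occipital-only loci in the lists of both areas. Frontal-only loci had H3K4me2 at 4.99% in frontal replicate 1, 16.8% in frontal replicate 2, 7.72% in occipital replicate 1 and 9.78% in occipital replicate 2. Occipital-only loci had it at 13.1%, 72.6%, 57.6% and 44.9% in the same lists, and shared loci at 67.4%, 93.4%, 86.8% and 85.3%. The highest value of occipital-only loci was thus in a frontal list, and frontal-only loci lay below occipital-only loci in every list, those of frontal cortex included. Relative to the share over all loci in the same list (23.1%, 51.6%, 41.7% and 35.5%), frontal-only loci were at 0.217, 0.325, 0.185 and 0.276 and occipital-only loci at 0.568, 1.41, 1.38 and 1.27. The share at frontal-only loci divided by that at occipital-only loci was 0.381 and 0.231 in the frontal and 0.134 and 0.218 in the occipital lists. On this scale both frontal lists lay above both occipital lists, whereas on the scale of percentage points, given next, the areas overlapped. The H3K4me2 lists covered 31.5, 93.4, 66.9 and 52.8 Mb of the 10 chromosomes, in the order of the shares at occipital-only loci.

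**Figure D4:**
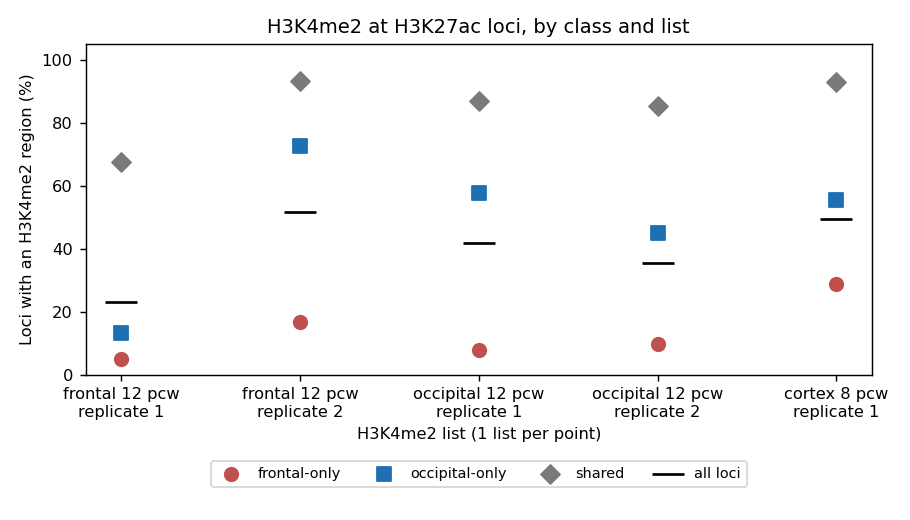
Percent of loci with an H3K4me2 region (y axis) in each H3K4me2 list (x axis, 1 list per point), for frontal-only, occipital-only and shared H3K27ac loci and for all loci. Frontal-only loci lie at 4.99 to 16.8% and occipital-only loci at 13.1 to 72.6% in the 12 pcw lists, and occipital-only loci lie above frontal-only loci in each list.

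The share at frontal-only minus that at occipital-only loci was -8.10 and -55.8 percentage points in the frontal and -49.9 and -35.1 points in the occipital H3K4me2 lists. The frontal mean (-32.0 ± 33.8, SD, n = 2) exceeded the occipital mean (-42.5 ± 10.5, n = 2) by 10.5 points, less than the spread between the frontal replicates (exact two-sided permutation p = 1, the smallest possible being 0.333). The difference between the classes was below 0 in 4 of 4 lists (mean -37.2 points, SD 21.3), with an exact two-sided p of 0.125 by sign flips, the smallest that 4 lists allow. This second test was chosen after the values were seen. It does not cover how the H3K27ac lists set the classes, since all 4 H3K4me2 lists were scored on the same loci. The size of the class difference changed with the H3K27ac lists that set the classes. With a list left out, the class of its area takes in loci of a single list. The other class takes in loci that the list left out had held. Shifts under these settings can follow from this change alone and do not single out a list. Without frontal replicate 1 the difference was -21.3, -73.5, -67.2 and -47.4 points in the 4 H3K4me2 lists. Without frontal replicate 2 it was -9.75, -54.7, -45.4 and -40.0 points. Without occipital replicate 1 it was 5.99, -9.78, -11.3 and -11.6 points, and without occipital replicate 2 it was -0.00871, -23.6, -19.6 and 0.567 points. The difference also varied where each area kept 1 list. With the lists that reach the chromosome ends alone it was 2.08, -9.60, -7.38 and -18.9 points. With those that stop early alone it was -8.70, -44.0, -36.5 and -14.6 points. Loci held by a single list differed likewise. Those of frontal replicate 2 alone had H3K4me2 at 5.95% in the H3K4me2 list of the same tissue and replicate, and those of occipital replicate 1 alone at 27.5%. The part that single H3K27ac lists have in the class difference was not tested.

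The class difference was present among short and long loci. Between 500 and 1000 bp, H3K4me2 in frontal replicate 2 was called at 16.7% of 756 frontal-only and 54.1% of 532 occipital-only loci. Above 2000 bp the values were 12.3% of 391 and 82.7% of 665 loci. In occipital replicate 2 they were 8.20% and 31.4% in the short and 7.67% and 50.2% in the long loci. Between these bounds they were 19.1% and 75.9% in frontal replicate 2 and 12.3% and 48.6% in occipital replicate 2. Frontal-only loci thus had their highest shares at middle spans in both lists.

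Few loci had both marks divided by area. H3K4me2 in both frontal lists and no occipital list was found at 2 frontal-only loci, one between 220989326 and 220990500 of chromosome 1 and the other between 10313226 and 10314200 of chromosome 4. The reverse, H3K4me2 in both occipital lists and no frontal list, occurred at as many frontal-only loci, 2. At the frontal-only locus on chromosome 1, H3K27ac covered 700 and 1175 bp and H3K4me2 600 and 800 bp in frontal cortex. At occipital-only loci H3K4me2 lay in both occipital lists alone 8 times and in both frontal lists alone 9 times. Among shared loci the frontal pattern occurred at 10 and the occipital pattern at 23, and among all loci at 104 (0.171%) and 97 (0.159%). The first of the 8 by its shorter region, on chromosome 11 from 106683976 to 106685575, had 1375 and 1300 bp of H3K27ac together with 625 and 875 bp of H3K4me2 in occipital cortex. It already carried 1575 bp of H3K27ac at 8 pcw. H3K4me2 was absent from all 4 lists at 1574 frontal-only loci (81.0%) and 480 occipital-only loci (22.2%), and present in all 4 at 70 (3.60%) and 239 (11.1%). At 1573 occipital-only loci (72.8%) at least 1 frontal list had H3K4me2 with no frontal H3K27ac, against 51.8% of all loci with H3K4me2 in a frontal list. Of these, 1570 had it in frontal replicate 2 and 283 in frontal replicate 1, with 280 in both. Loci called in occipital replicate 1 or 2 alone, likewise without frontal H3K27ac, had H3K4me2 in frontal replicate 2 at 41.7% and 29.1%. At 233 frontal-only loci (12.0%) at least 1 occipital list had H3K4me2 with no occipital H3K27ac, against 46.5% of all loci with H3K4me2 in an occipital list. The shares of all loci include shared loci, which do have H3K27ac in both areas, so that they are not a like measure.

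Over the 22232 loci that could be tested for H3K4me2, none had a limma adjusted p below 0.05 between areas (0% called), and 151 had an unadjusted p below 0.05, 75 of them longer in frontal cortex. This split changed with scaled lengths, to 10 frontal of 298 loci. With 1 list left out, loci with H3K4me2 in a single remaining list fell out of the test. Splits under those settings follow in part from this filter and are not given. Of the tested loci 204 were frontal-only and 1351 occipital-only. H3K4me2 covered lengths did not overlap, with frontal longer, at 4 frontal-only (1.96%) and 12 occipital-only loci (0.888%), beside 1.11% of all loci tested. With occipital longer they did not overlap at 6 (2.94%) and 37 loci (2.74%), beside 2.42% of all loci tested. These shares are near those of all loci. Frontal replicate 1 of H3K4me2 was shorter in all than both occipital lists and frontal replicate 2 longer than both.

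Frontal-only loci lay near chromosome ends more often than the other classes. Within 5 Mb of the first or last called position of a chromosome lay 454 frontal-only loci (23.4%), 97 occipital-only loci (4.49%) and 1943 shared loci (12.3%), against 12.1% of all loci. The stretches named make up 7.14% of the 10 chromosomes. Frontal-only loci had a higher share near the ends than occipital-only loci on each of the 10 chromosomes, from 9.55% against 5.62% on chromosome 2 to 36.0% against 9.57% on chromosome 18. The distance was chosen after the positions were seen, and no test is given, since neighbouring loci are not replicates.

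**Figure D5:**
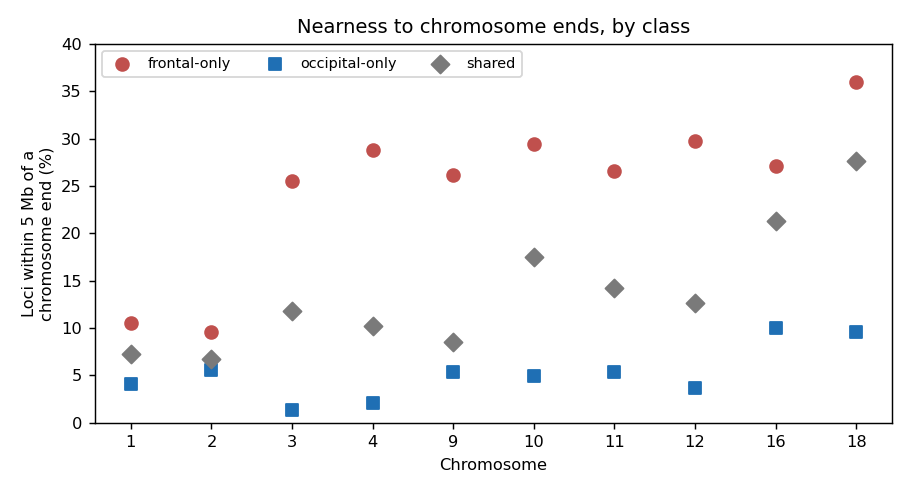
Percent of the loci of each class that lie within 5 Mb of a chromosome end (y axis) on each of the 10 chromosomes (x axis). Frontal-only loci lie above shared loci and shared loci above occipital-only loci on all 10, with frontal-only values of 9.55 to 36.0%.

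Position moved with single lists as well. Near the ends lay 20.1% of loci called in frontal replicate 2 alone and 13.0% of those in frontal replicate 1 alone, against 6.83% and 6.62% of those in occipital replicates 1 and 2 alone. Between the lists that reach the chromosome ends, 14.6% of loci called in frontal cortex alone and 7.60% of those called in occipital cortex alone lay there, and between the lists that stop early 19.7% and 6.94%. Leaving out 1 list at a time gave 17.3 to 21.8% for frontal-only and 5.27 to 6.46% for occipital-only loci. Base composition along the chromosomes was not analysed here. The low H3K4me2 of frontal-only loci was not limited to the ends, since in frontal replicate 2 it was called at 15.0% of them near the ends and 17.3% farther inside, against 67.0% and 72.9% of occipital-only loci.

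Area-only loci also differed in their surroundings. The nearest shared locus was a median of 11500 bp from a frontal-only and 25325 bp from an occipital-only locus, and 22575 bp from a locus in 1 list. For loci in frontal replicate 1 or 2 alone that median was 18500 and 17087.5 bp. For loci in occipital replicate 1 or 2 alone it was 32775 and 23125 bp, so that single lists split in the same direction. A shared locus within 5 kb was found for 30.1% of frontal-only and 18.8% of occipital-only loci. An occipital region lay within 5 kb of 1118 frontal-only loci (57.5%), and a frontal region within 5 kb of 944 occipital-only loci (43.7%). Loci farther than 50 kb from any region of the other area numbered 49 (2.52%) and 199 (9.20%). The shares within 5 kb and beyond 50 kb have none over all loci beside them. Whether they are particular to the area-only classes was not tested.

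Of 1395 windows of 1 Mb with a locus, 709 held a frontal-only and 908 an occipital-only locus, and 475 held both. The windows with the largest excess of frontal-only loci lay on chromosome 18 from 72000001 to 73000000 (21 frontal-only, 0 occipital-only loci), on chromosome 4 from 165000001 to 166000000 (21 and 1) and on chromosome 2 from 47000001 to 48000000 (18 and 1). They held 112, 111 and 114 loci in all, and 3.19% of all loci compared were frontal-only. The windows on chromosomes 18 and 4 lie within 5 Mb of the last called position. As all windows named here were ranked on the H3K27ac lists, longer H3K27ac in their area follows in part from this choice. In the window on chromosome 18, H3K27ac covered 84350 and 133625 bp in the frontal and 55650 and 28000 bp in the occipital lists. H3K4me2 there covered 23000 and 48875 bp in frontal and 31575 and 41300 bp in occipital cortex, so that the areas overlapped in H3K4me2. The largest excess of occipital-only loci was between 11000001 and 12000000 of chromosome 9 (11 against 0). Next came 55000001 to 56000000 (11 against 1) and 171000001 to 172000000 (12 against 2) of chromosome 3. The windows of this order held 91, 93 and 106 loci in all, and 3.55% of all loci compared were occipital-only. In the last window H3K27ac covered 203950 and 207100 bp in the occipital and 106725 and 80450 bp in the frontal lists, and 33550 bp at 8 pcw. The window on chromosome 9 had 300525 and 269875 bp in occipital and 190425 and 130100 bp in frontal cortex.

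By chromosome, frontal-only loci were 38.2% of the area-only loci on chromosome 2 (220 of frontal and 356 of occipital cortex) and 41.6% on chromosome 4, and 54.5% and 54.2% on chromosomes 16 and 18. Occipital replicate 1 held 5875 regions on chromosome 2, against 4254 and 4303 in the frontal lists and 3779 in occipital replicate 2. Its part in the low frontal share there was not tested.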

How the data were processed

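The values are positions of called regions, deposited by the authors as 3 columns (chromosome, start, end) without counts or scores, in 1 list per sample. The submitters' processing notes name Bowtie 0.12.9. The calling program, its threshold and the rhesus assembly were not stated in the sources used here. All starts and ends lay on a 25-bp grid, with widths from 500 bp. Read depth is unknown, and list length stands in its place.

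Loci are written 1-based, and the covered length of a locus is the bp that a list's regions cover. A mark counts as called at an overlap of 1 bp or more. log2(covered bp + 200) was fitted with limma 3.58.1 (eBayes with trend, R 4.3.3) with 1 mean per tissue over the 5 rhesus lists of a mark, at a Benjamini-Hochberg adjusted p below 0.05. The fit was also run on shuffled lengths, with large differences added at 200 loci. That run does not show whether differences of the size seen here could be called. Python 3.11.15, numpy 2.4.6, pandas 2.3.3 and scipy 1.17.1 were used otherwise.

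Named loci were taken by rank: the longest in the shorter list of their area, the longest shared loci, the largest non-overlapping differences, loci at the edge of the classes, loci with both marks divided by area, and windows of 1 Mb. The chromosomes, classes and rules were chosen with earlier results of these data known. The split by where lists end and the nearness to chromosome ends were added after the data were seen.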

Additional observations from a re-analysis of the deposited data

How the results depend on the processing

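Neither locus test called a locus under any alternative, with counts of 0 throughout: a pseudocount of 1000 bp, scaled lengths, other filters, all chromosomes, the 12 pcw lists alone, and each list left out, where the lone list of an area is assumed to vary like the others. With the replicate block the counts were also 0, and same-numbered deviations correlated at 0.427 over 32491 loci in 2 pairs, a hint from the data alone. The numbers of loci moved with fewer lists, since presence in 1 list, or absence from 1 list, is met more easily than for 2. Moves were larger where the area of the class itself was left with 1 list. Frontal-only loci numbered 11835 and 6161 without frontal replicate 1 or 2, against 4379 and 2663 without occipital replicate 1 or 2. Occipital-only loci numbered 6695 and 13730 without occipital replicate 1 or 2, against 5219 and 3082 without frontal replicate 1 or 2. Leaving out each list gave 2663 to 11835 frontal-only, 3082 to 13730 occipital-only and 16749 to 18958 shared loci. On all chromosomes they were 3437, 3911 and 28177, and frontal-only loci numbered 770 when 1000 bp were needed. The lists that stop early alone gave 14028 and 20729, and the others 13318 and 8844.

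The 8 pcw shares of frontal-only, occipital-only and shared loci were 31.8%, 31.9% and 88.5% with an equal number of widest regions, 49.7%, 41.0% and 93.6% when 1000 bp were needed, and 13.7%, 15.4% and 56.8% when 50% of the locus had to be covered. When 1000 bp were needed, the area-only classes could take in loci with shorter regions in the other area. Leaving out each H3K27ac list gave 11.9 to 36.4%, 14.0 to 35.7% and 78.7 to 83.9%. The H3K4me2 difference between areas, 10.5 points, turned to -2.27 without occipital replicate 2 of H3K27ac, to -0.810 with the lists that stop early alone and to -13.3 without frontal replicate 1 of H3K4me2. It was 34.4 without frontal replicate 2 of H3K4me2. The cause was not tested. The 10 longest loci of each area-only class and the 10 shared domains with the largest differences kept their direction, which for the area-only loci follows from their choice. The other named loci were not rerun.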

Other observations

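Chromosome X lay outside the chromosomes compared, although all 4 H3K27ac lists reach its end. Of its 4035 loci, 87 were frontal-only (2.16%), 200 occipital-only (4.96%) and 900 shared (22.3%). H3K4me2 at the frontal-only loci of X was called at 3.45% and 23.0% in the frontal and 10.3% and 9.20% in the occipital lists. At the occipital-only loci of X it was called at 9%, 76.5%, 54% and 34% in the same lists, again highest in frontal replicate 2. The 8 pcw list held H3K27ac at 20.7% of frontal-only, 31.0% of occipital-only and 87.0% of shared loci of X.

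Loci in 3 lists lay between the area-only and shared classes in median span (2200 bp) and in 8 pcw H3K27ac (44.6%). Their H3K4me2 lay below that of occipital-only loci in frontal replicate 2 (69.8% against 72.6%) and occipital replicate 1 (55.8% against 57.6%). It lay above in frontal replicate 1 (22.7% against 13.1%) and occipital replicate 2 (45.3% against 44.9%). Of loci in 3 lists, those missed by frontal replicate 2 alone numbered 3006, against 2250 missed by occipital replicate 2, 872 by frontal replicate 1 and 631 by occipital replicate 1. Their H3K4me2 in frontal replicate 2 was called at 87.9%, 54.2%, 67.7% and 42.2%. Loci missed by frontal replicate 2 of H3K27ac had the highest share of these in each 12 pcw H3K4me2 list, at 30.2%, 87.9%, 79.8% and 57.4%.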
